A study of Mus musculus with 2 samples.

Results

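The small leucine-rich proteoglycans (SLRPs) are secreted proteins of connective tissue, and 9 of them were followed here by gene symbol among the 32285 genes counted: Dcn, Lum, Kera, Bgn, Fmod, Ogn, Prelp, Podn and Aspn. The members were listed by symbol and not by a measured value, although earlier results of these data were known when they were chosen. All 9 were found. They were followed in single cells of the embryonic mouse eye, in 2 libraries taken at E17.5, shortly before birth, each labelled as a pool of 3 eye cups. The study's methods give that same number as mice, with both eyes of each. The first library came from Myrf humWT/humWT embryos, in which an exon at the 3′ end of mouse Myrf was exchanged for its human counterpart. The other came from Myrf humdG/humdG embryos, in which the inserted human exon also carried a C-terminal frameshift linked to nanophthalmos, an eye that is too small. The humWT allele was made by CRISPR editing in fertilized eggs from C57BL/6J matings. The humdG allele came from further editing with another guide, starting from heterozygous humWT mice. Both genotypes thus carry human sequence in Myrf and neither is an unedited wild type. The labels give neither the sex nor the litter of the pooled embryos. Myrf encodes a membrane-anchored transcription factor that in the eye acts in the retinal pigment epithelium (RPE). The sources differ on the cornea. The labels have it removed with lens and optic nerve before dissociation with papain, in a protocol text that speaks of floxed Myrf mice with and without an Rx-driven Cre rather than of the humanized strains. The study's methods for these embryos name lens and optic nerve alone as removed and count the cornea among the tissues kept, so corneal tissue may have been present. With 1 library per genotype there was no replicate, so no p-value is given, and every interval (95%, in square brackets) covers counting error only.

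SLRPs have a small protein core of leucine-rich repeats that binds collagen fibrils, and most carry sulfated sugar chains. They set the diameter and spacing of fibrils, which is known best from the cornea, sclera, tendon and skin, and several also bind growth factors such as TGF-beta. Class I holds Dcn (decorin) and Bgn (biglycan), which carry chondroitin or dermatan sulfate, and Aspn (asporin), which has no such chain. Class II holds Lum (lumican), Kera (keratocan) and Fmod (fibromodulin), which can carry keratan sulfate, and Prelp, which binds heparin-like chains in basement membranes. Ogn (osteoglycin, or mimecan) belongs to class III and Podn (podocan) to class V.

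The unit throughout is the unique molecular identifier (UMI), a tag that marks 1 captured RNA molecule. The kit reads the 3′ end of each molecule, so counts were not divided by gene length, and levels are given as CPM, the UMIs of a gene per 1000000 UMIs, summed over the cells of a cluster. The humWT library held 129135207 UMIs in 17421 barcodes and the humdG library 114319529 UMIs in 19565 barcodes. After filtering, 16166 and 18173 cells remained, with medians of 3782 and 2625 UMIs. The libraries shared 102 barcodes. In all cells the 9 genes gave 247924 UMIs in the humWT library and 116619 in the humdG library. The pools differed in sex makeup: 2264 humWT and 5337 humdG cells had Xist but no Y-linked UMIs, and 5774 and 3562 cells the reverse.

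Cells were grouped into 24 clusters from genes that left out the SLRPs, and a cluster was named only from marker lists that held no SLRP. Of these, 3 clusters were mesenchyme-like. Narrower names and their leading genes were taken against the other cells of clusters 4, 6, 10 and 20, of which cluster 6 is described below. The cluster numbered 4 (1100 humWT and 504 humdG cells) was led in this way by Pi16, Clec3b, Tnxb, Dpt and Ebf2. It raised 5 of the 6 markers of adventitial fibroblasts. The cluster numbered 20 (145 and 51 cells) was led by Tnmd, C1qtnf3, Scx, Col11a2 and Cilp and raised 5 of the 6 tendon markers, among them the tendon membrane protein Tnmd and the tendon transcription factors Scx and Mkx. It is called tendon-like here. The cluster numbered 10 (628 and 479 cells) was led in the whole data by Col12a1 and Postn and had no narrower name. Against the other cells of clusters 4, 6 and 20 it was led by the hemoglobin genes Hba-a2 and Hba-a1 and by Cdk8, with Lars2 and Gm42418 among its 20 leading genes. The 7 red blood cell markers summed to 11332.5 and 11332.3 CPM in it, against 2451.7 and 1542.3 CPM in cluster 4, and its median depth was 3322 and 2277 UMIs, against 15394 and 16597.5 in cluster 4. Cluster 10 was 33.5% and 46.3% of the mesenchyme-like cells, and the part of free RNA in its levels was not tested. The label of the gene set speaks of ocular stroma, but no cluster met the naming rule for corneal stroma. Of that list, only Chst5, which sulfates keratan chains, was higher in the tendon-like cluster than in cluster 4 in both libraries. It was counted at 161.6 and 168.1 CPM in the tendon-like cluster and at 0.75 and 0.68 CPM in cluster 4. Chst1, B3gnt7, Ptgds and Aldh3a1 were lower in the tendon-like cluster in both libraries. Angptl7 was higher there in the humWT library and lower in the humdG library. Cluster 6 (933 and 578 cells), led by Spp1, Mgp and Rgs5, raised 10 of the 12 mesenchyme markers but stayed unnamed, because Rgs5, a marker of mural cells, was among its 10 leading genes and no mesenchyme marker was. These 4 clusters are called stromal below.

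The SLRPs were concentrated in these clusters. The 3 mesenchyme-like clusters were 11.6% of humWT cells and 5.69% of humdG cells, and held 59.8% [59.6 to 60.0] and 55.4% [55.1 to 55.7] of all UMIs of the 9 genes. With cluster 6 counted in, the stromal clusters were 17.4% and 8.87% of cells and held 79.5% and 84.6% of the UMIs of the 9 genes. Cells differed in depth, so a share of cells is not a share of UMIs. Of the UMIs of all genes, the mesenchyme-like clusters held 23821170 of 119833236 (humWT) and 11028882 of 107817291 (humdG). The stromal clusters held 39458774 and 21634433 of these totals. In 3′ molecules, Dcn was the most abundant member in every stromal cluster and in both libraries. Below it the order differed from cluster to cluster.

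**Figure D1:**
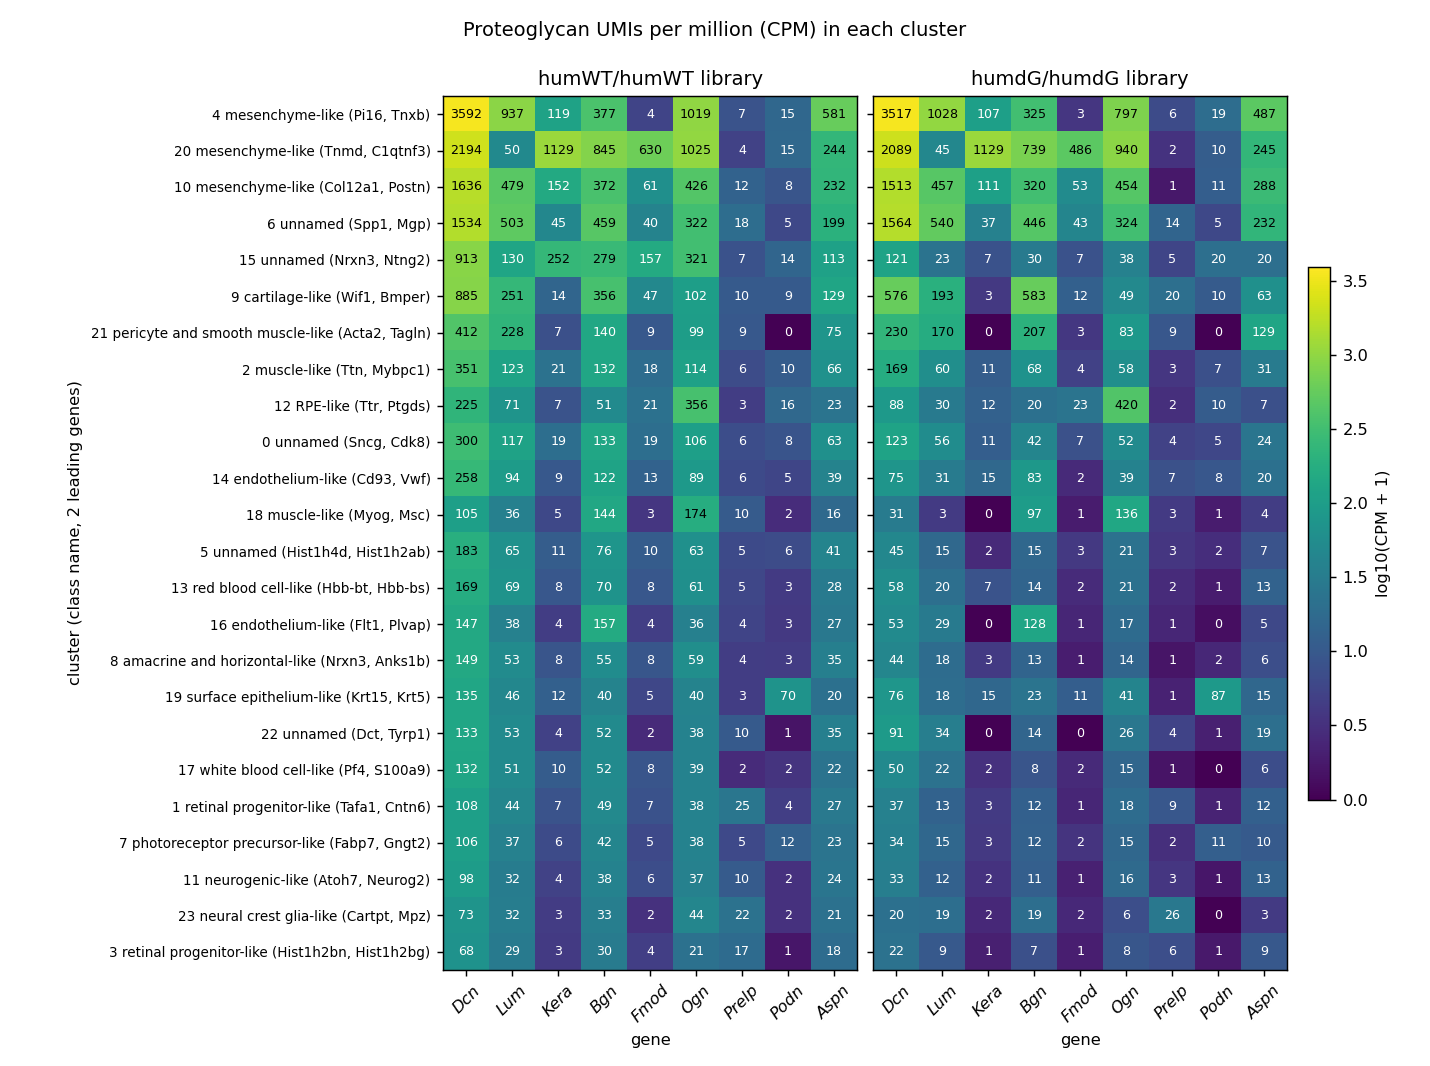
Level of each of the 9 SLRPs (columns) in each of the 24 clusters (rows, with 2 leading genes), for the humWT library (left) and the humdG library (right). Numbers in the cells are CPM and colour is log10(CPM + 1). Dcn is highest in cluster 4 (3592 and 3517 CPM), Kera and Fmod in cluster 20, and Podn in the surface epithelium-like cluster.

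Of class I, Dcn, the collagen-binding proteoglycan named for decorating fibrils, was counted at 3592 CPM [3564 to 3620] in cluster 4 of the humWT library and 3517 in that of the humdG library. It was at 2194 and 2089 CPM in the tendon-like cluster, 1636 and 1513 in cluster 10, and 1534 and 1564 in cluster 6. Neighbouring levels in this order had intervals that did not overlap in the humWT library. Of the named classes outside the stroma, the cartilage-like one was highest, at 885.3 and 575.9 CPM. In the humWT library the unnamed cluster numbered 15, described below, was above it. Bgn, a close relative of Dcn known from bone and tendon, had a different order among the stromal clusters. It was highest in the tendon-like cluster (844.8 and 738.5 CPM), followed by cluster 6 (459.0 and 446.5), cluster 4 (376.6 and 324.7) and cluster 10 (371.8 and 319.7). Aspn, a class I member that binds collagen and TGF-beta, ran with Dcn: it stood at 581.0 and 487.1 CPM in cluster 4 and between 199.1 and 287.7 CPM in the other stromal clusters.

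Of class II, Lum and Kera were arranged in opposite ways in cluster 4 and the tendon-like cluster. Lum, which spaces collagen fibrils in cornea and skin, was at 937.4 and 1028 CPM in cluster 4, at 457.4 to 540.1 CPM in clusters 6 and 10, and at only 50.03 and 45.2 CPM in the tendon-like cluster. The humWT value was below the 69.1 CPM of red blood cell-like cells, which should make none, and the humdG value above the 19.9 CPM of those cells. Kera, a keratan sulfate proteoglycan known from the cornea and from tendon, was at 1129 CPM in the tendon-like cluster of both libraries [1096 to 1163 in humWT, 1059 to 1202 in humdG]. It was at 119.4 and 106.9 CPM in cluster 4, 151.7 and 111.4 in cluster 10, and 45.3 and 36.9 in cluster 6. Kera was therefore above Lum in the tendon-like cluster and below it in the other stromal clusters, in both libraries. Fmod, which binds collagen at the same site as Lum and is abundant in tendon, went with Kera: it was at 630.1 and 485.8 CPM in the tendon-like cluster, at 40.1 to 60.5 CPM in clusters 6 and 10, and at 4.42 and 2.73 CPM in cluster 4, where Dcn was highest. Prelp, the basement membrane member, was low in all stromal clusters, between 0.73 and 18.5 CPM.

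**Figure D2:**
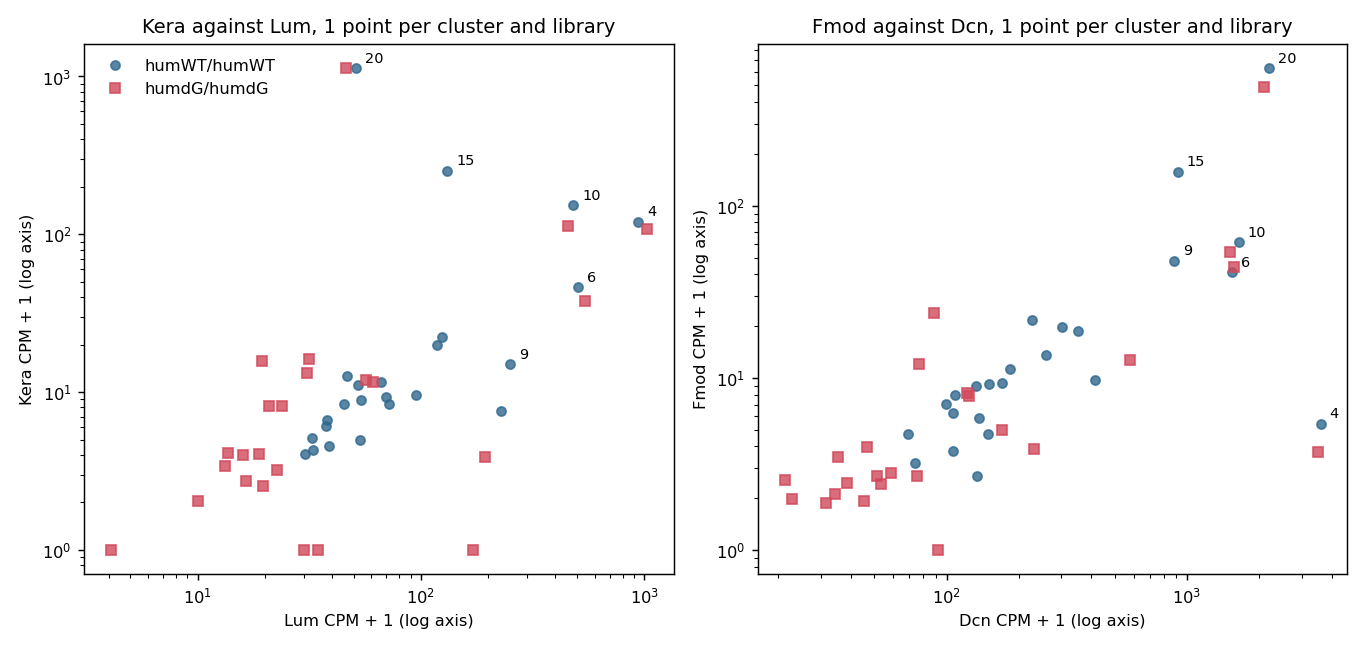
Left, Kera against Lum; right, Fmod against Dcn. Each point is a cluster in a library, both axes are CPM + 1 on a log scale, and the stromal, cartilage-like (9) and 1 unnamed cluster (15) are numbered beside their humWT points. The tendon-like cluster 20 combines 1129 CPM of Kera with 50.03 and 45.2 CPM of Lum, and cluster 4 has the highest Dcn with 4.42 and 2.73 CPM of Fmod.

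Of classes III and V, Ogn, a member with a short repeat domain known from bone and cornea, was at 1019 and 797.1 CPM in cluster 4 and at 1025 and 940.2 CPM in the tendon-like cluster. Its levels in these 2 clusters had overlapping intervals in the humWT library and not in the humdG library. It was at 321.5 to 453.7 CPM in the other stromal clusters. Podn, which has been linked to the growth of smooth muscle cells, was at 5.05 to 18.5 CPM in stromal clusters. Podn and Prelp were the least abundant of the 9 in pooled mesenchyme-like cells, at 14.1 and 16.96 CPM and at 7.30 and 4.81 CPM.

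The opposite pattern of Kera and Lum was also seen cell by cell. Among cells with at least 5000 UMIs, Kera had more UMIs than Lum in 135 of 138 humWT cells of the tendon-like cluster (97.8% [93.8 to 99.5]) and in 47 of 47 humdG cells. In cluster 4 it did so in 40 of 1039 humWT cells (3.85%) and 18 of 486 humdG cells (3.70%). The median deep cell of the tendon-like cluster had 22 Kera and 1 Lum UMIs in the humWT library and 18 and 0 in the humdG library. In cluster 4 the medians were 0 Kera with 14 and 16 Lum UMIs. The cells of a cluster came from 1 pool per genotype, so these shares describe 2 libraries.

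Because cells differed in depth, each cell was also thinned to 1000 UMIs. Dcn was then counted in 91.2% and 91.7% of cells of cluster 4 and in 14.1% and 6.58% of red blood cell-like cells, whose median depths before thinning were 4026 and 4191 UMIs. Kera was counted in 63.4% and 70.6% of tendon-like cells and in 9.09% and 8.33% of cells of cluster 4, and Lum in 5.52% and 3.92% and in 55.4% and 58.5%. Before thinning, when the median depths of cluster 4 were 15394 and 16597.5 UMIs, Dcn was counted in 99.5% and 99.6% of cells there. Fmod was counted in 35.2% and 25.5% of tendon-like cells.

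**Figure D3:**
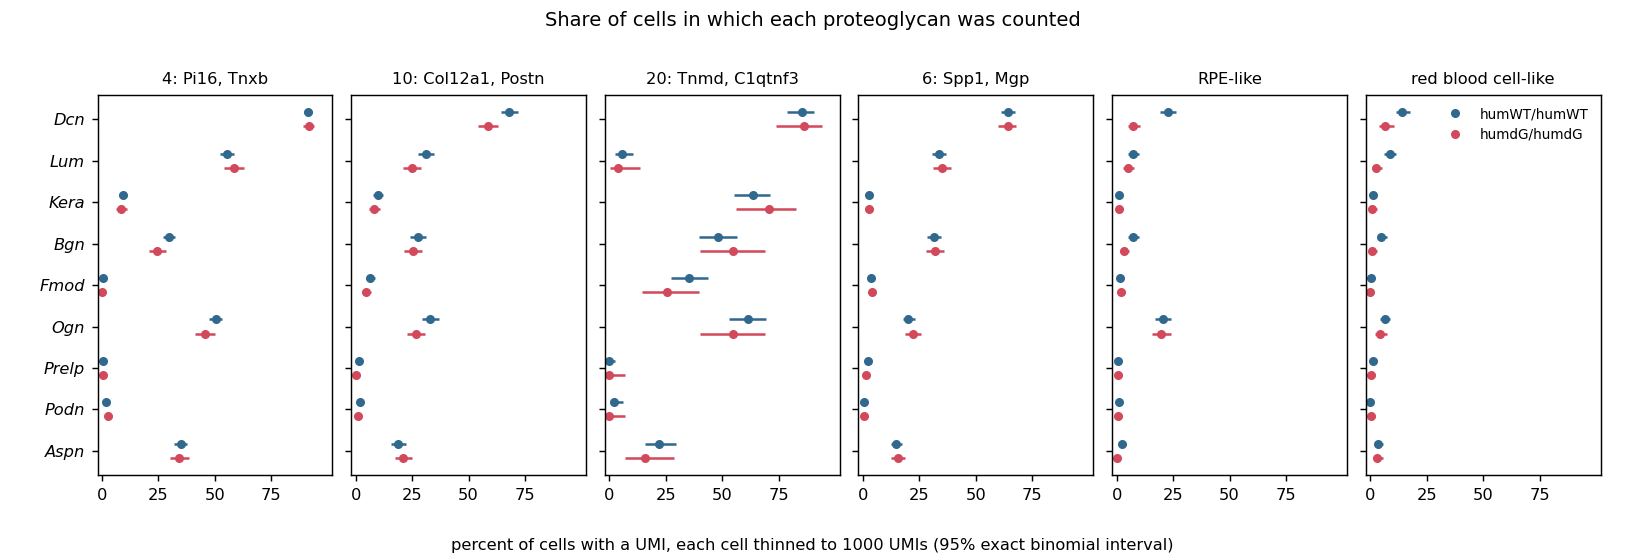
Percent of cells in which each SLRP had at least 1 UMI after every cell was thinned to 1000 UMIs, for the 4 stromal clusters, RPE-like cells and red blood cell-like cells; bars are exact 95% binomial intervals. In tendon-like cells (20) Kera is counted in 63.4% and 70.6% and Lum in 5.52% and 3.92%, and in RPE-like cells Ogn is counted in 20.3% and 19.6%.

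Several SLRPs lie side by side in the genome (GRCm38, GENCODE annotation), and neighbours did not all share a pattern. Dcn (chr10:97479609-97518143), Lum (chr10:97565128-97572703), Kera (chr10:97606879-97613692) and the family member Epyc (chr10:97644068-97682454) follow each other on the plus strand, yet Lum and Kera were opposed as described. Aspn (chr13:49544443-49567565) and Ogn (chr13:49608046-49624501) lie on the plus strand within the span of Cenpp, which is on the minus strand. How counting treated strand is not given in the sources used here, so reads of Cenpp (7415 and 8218 UMIs in its own row) among theirs cannot be told apart. Prelp (chr1:133910304-133921414, minus) and Fmod (chr1:134037254-134048277, plus) are near neighbours too. Over the 24 clusters, log2(CPM + 10) of Kera correlated with that of Fmod at r = 0.87 in both libraries and with that of its neighbour Lum at r = 0.45 and 0.49, and Aspn correlated with Dcn at r = 0.98 and 0.96. The clusters of a library share its background RNA and differ in depth, so these values are descriptions.

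The 150 bases before the RefSeq start of Kera and Fmod, the pair of tendon-like cells, and of the neighbours Aspn and Ogn, of which Ogn alone stood above background in RPE-like cells (Aspn was at 23.0 and 6.55 CPM there), are shown 5′ to 3′ on the gene's strand (GRCm38.p6). They were searched on both strands for CANNTG, the letters bound by bHLH factors such as Scx, and for TATAAA, with matches in capitals. Kera lies at chr10:97607055-97607204, Fmod at chr1:134037104-134037253, Aspn at chr13:49544293-49544442 and Ogn at chr13:49607865-49608014.
Kera: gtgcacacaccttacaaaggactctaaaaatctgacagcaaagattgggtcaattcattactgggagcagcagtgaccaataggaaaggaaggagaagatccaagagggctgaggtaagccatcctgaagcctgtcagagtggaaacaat
Fmod: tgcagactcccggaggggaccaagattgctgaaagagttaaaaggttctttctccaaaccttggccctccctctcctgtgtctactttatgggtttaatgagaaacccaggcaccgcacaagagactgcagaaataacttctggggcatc
Aspn: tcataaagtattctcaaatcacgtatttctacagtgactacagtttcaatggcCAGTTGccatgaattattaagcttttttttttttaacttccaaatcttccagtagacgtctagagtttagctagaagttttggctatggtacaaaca
Ogn: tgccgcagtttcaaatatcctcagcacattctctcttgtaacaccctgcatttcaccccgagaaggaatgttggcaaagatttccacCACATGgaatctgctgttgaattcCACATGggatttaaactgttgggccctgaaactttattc
The Kera window held no match to either motif, also over 250 bases. The RefSeq start of Kera used here lies downstream of its GENCODE start (chr10:97606879), so this window falls within the GENCODE gene. The bases before the GENCODE start were not searched. Fmod had 1 CANNTG at 189 bases before the start, outside the stretch shown, Aspn had 1 at 97 bases (CAGTTG), and Ogn had 3, the nearest at 39 bases (CACATG). Aspn and Ogn each had 2 TATAAA, all farther than 150 bases from the start. Of 32851 promoters in the table, 66.2% held CANNTG and 12.4% held TATAAA within 250 bases, so having or lacking such letters is common. No promoter of Dcn or Lum was matched.

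Outside the stroma, most SLRP counts were near background. In red blood cell-like cells (509 humWT and 245 humdG cells) the 9 genes together were at 421.3 and 136.4 CPM, a humdG to humWT ratio of 0.32 [0.27 to 0.38]. Dcn was at 168.9 and 57.8 CPM there, and at 0.52 and 0.51 times that level in retinal progenitor-like cells. The 7 red blood cell markers took up 468550 and 573167 CPM of red blood cell-like cells. This lowers the CPM of other genes in these cells, and more so in the humdG library. The ratio above and all levels given as times the red blood cell-like level carry this, and they were not rescaled. A ratio to Dcn within the same cells is not changed by it. A member was therefore read as present in another class only beside its own level in red blood cell-like cells and beside its ratio to Dcn. That ratio was 35.9 Ogn UMIs per 100 Dcn UMIs in red blood cell-like cells of both libraries.

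Ogn was the clearest case, in the RPE. In RPE-like cells (541 and 385 cells) Ogn was at 356.0 CPM in the humWT library and 420.1 in the humdG library, 5.87 and 20.2 times its level in red blood cell-like cells. It reached 158.5 and 479.4 UMIs per 100 Dcn UMIs. Ogn was counted in 57.7% and 48.8% of RPE-like cells (median depths 3971 and 2658 UMIs) and in 23.4% and 8.98% of red blood cell-like cells, and after thinning in 20.3% and 19.6% and in 6.35% and 4.12%. The Ogn UMIs were spread over 312 and 188 cells, and the single cell with the most held 4.31% and 7.31% of them. Dcn was counted in 322 and 99 of the RPE-like cells, and after thinning in 22.7% and 7.31%. In the humWT library the share of cells thus did not set Ogn apart from Dcn. While Dcn, Lum and Bgn had humdG to humWT ratios of 0.39, 0.42 and 0.39 in RPE-like cells, Ogn had a ratio of 1.18 [1.09 to 1.28]. Fmod (20.7 and 22.9 CPM) and Podn (15.6 and 10.2 CPM) were also above their red blood cell-like levels in these cells, at far lower counts of 89 and 56, and 67 and 25 UMIs.

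The muscle-like cluster led by the myogenic genes Myog and Msc (255 and 122 cells) also held Ogn and Bgn, with Dcn below background. Its median depths were 17256 and 18338 UMIs. Ogn was at 174.2 and 136.3 CPM, in 69.8% and 64.8% of cells, with 165.9 and 446.4 UMIs per 100 Dcn UMIs. Bgn was at 144.1 and 97.4 CPM, in 78.0% and 74.6% of cells. Dcn itself was at 0.62 and 0.53 times its red blood cell-like level. In the endothelium-like cluster led by Flt1 and Plvap (294 and 135 cells) Bgn was the SLRP above background, at 156.8 and 127.7 CPM and 2.24 and 9.43 times its red blood cell-like level, in 72.4% and 57.0% of cells, where red blood cell-like cells had 26.1% and 4.90%.

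Podn had its highest level outside the stroma. In surface epithelium-like cells (111 and 133 cells, led by Krt15 and Krt5 and with the corneal keratin Krt12 among the leading genes) it was at 70.5 CPM [57.5 to 85.6] and 87.2 CPM [68.1 to 110.0]. In mesenchyme-like cells it was at 14.1 and 16.96 CPM. Podn was counted in 39.6% and 21.8% of these cells, whose median depths were 6199 and 2033 UMIs; in red blood cell-like cells it was counted in 1.38% and 0.41%. It was also at 12.3 and 11.2 CPM in photoreceptor precursor-like cells (65 and 64 UMIs), where Dcn was below its red blood cell-like level. Prelp was at 20.7 and 7.38 CPM in retinal progenitor-like cells and at 22.1 and 26.5 CPM in neural crest glia-like cells. The latter rested on 20 and 17 UMIs in 50 and 40 cells. Stromal cluster 6 (289 and 145 Prelp UMIs) was near the retinal progenitor-like level in the humWT library. In the humdG library cluster 6 was above it. In retinal progenitor-like cells Prelp differed between the libraries (ratio 0.36 [0.30 to 0.43]) by about as much as Dcn did there (0.34 [0.31 to 0.37]). Beside Dcn, however, it stood higher in these cells than in red blood cell-like cells. It had 319 and 195 UMIs beside 1350 and 779 of Dcn. In red blood cell-like cells it had 11 and 2 UMIs beside 384 and 64 of Dcn.

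**Figure D4:**
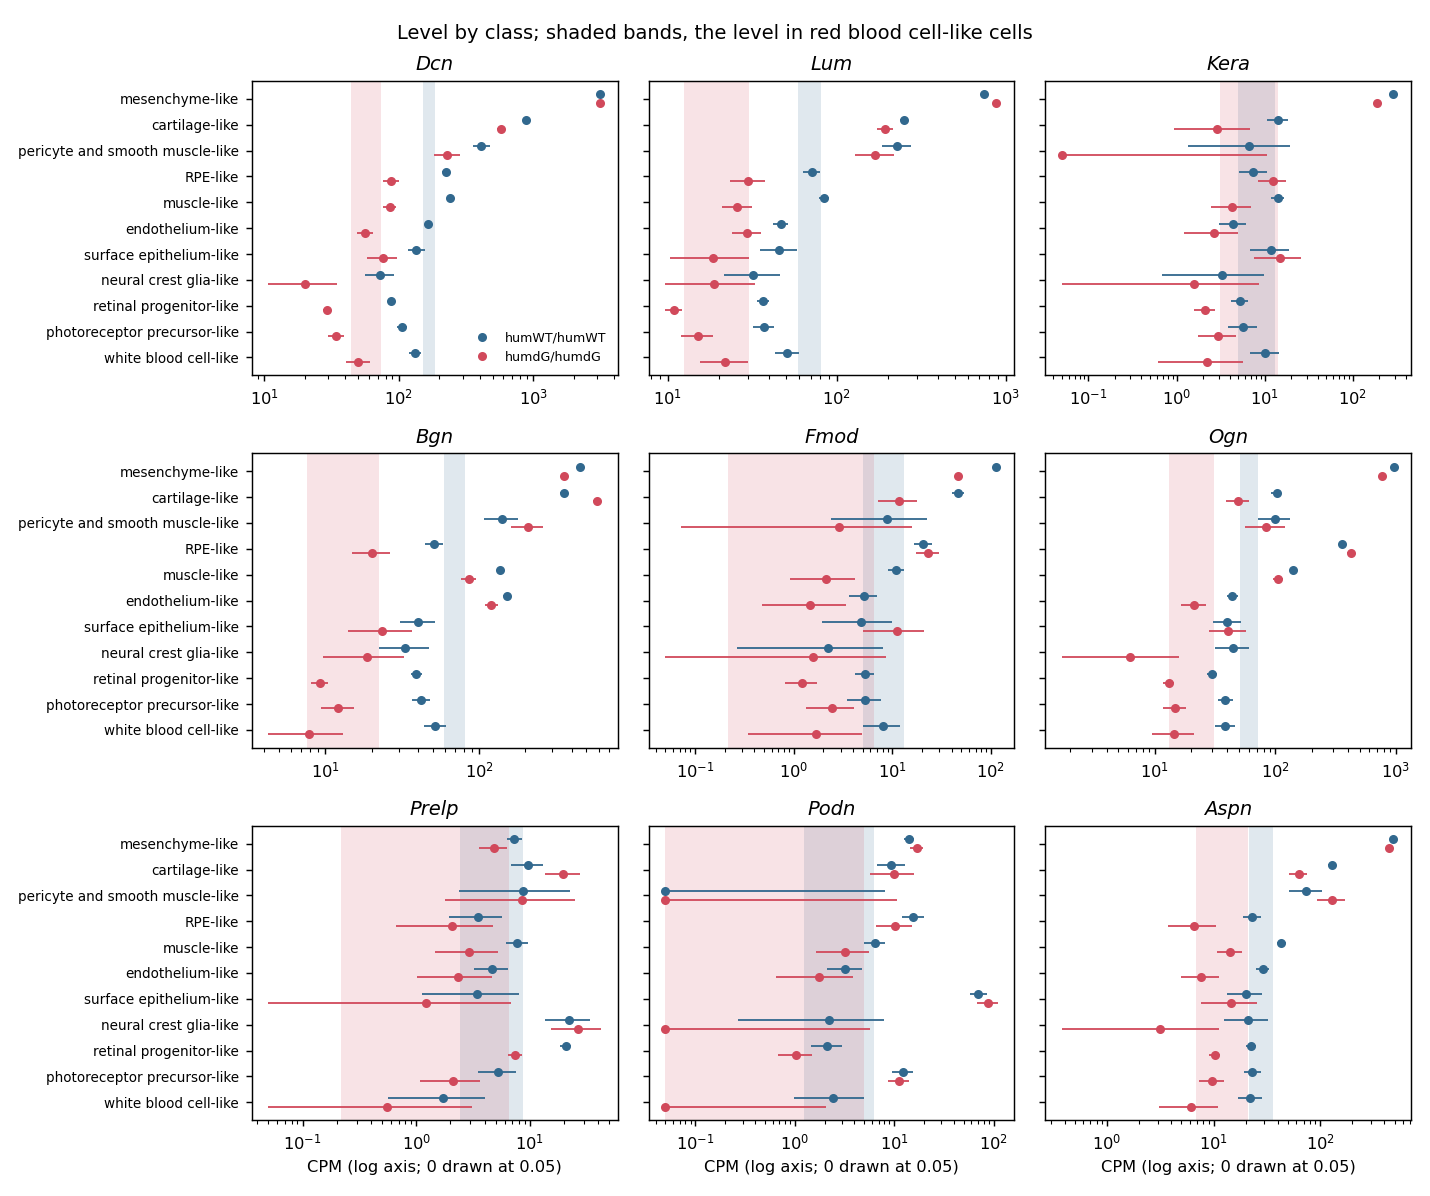
Level of each SLRP (1 panel each) by class in CPM on a log axis, with the humWT library in blue and the humdG library in red, exact 95% Poisson intervals as bars, and the interval of red blood cell-like cells as a shaded band per library. A value of 0 is drawn at 0.05 CPM, and 11 of the named classes are shown. Ogn in RPE-like cells and Podn in surface epithelium-like cells lie to the right of the bands in both libraries, and the bands for Dcn and Bgn are lower in the humdG library.

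Pericyte and smooth muscle-like cells (99 and 90 cells) held Dcn at 412.4 and 230.0 CPM, Lum at 228.1 and 169.6, Bgn at 140.4 and 207.0 and Aspn at 74.6 and 129.4, all above the red blood cell-like levels. Beside Dcn, humWT Bgn (64 UMIs beside 188 of Dcn) was not higher than in red blood cell-like cells (159 beside 384). Aspn (34 UMIs) was about the same there as in red blood cell-like cells (64 UMIs). In the humdG library both were higher beside Dcn (72 and 45 UMIs beside 80, against 15 and 14 beside 64). Cartilage-like cells (1218 and 125 cells) held Bgn at 356.0 and 583.5 CPM beside Dcn at 885.3 and 575.9. The humdG values rested on few cells: 10 of the 125 held 80.7% of the Bgn UMIs. Without the 6 humdG cells over 50000 UMIs, Dcn was at 876.7 CPM and Bgn at 419.1 in that library, so Bgn was below Dcn in both libraries, as no humWT cell of the cluster was that deep.

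The genotypes were compared within mesenchyme-like cells, as the humdG over humWT ratio of CPM. Cells of this class were a smaller share of the humdG library, and with 1 pool per genotype dissection and genotype cannot be told apart. The 9 genes together were at 6222 CPM in the humWT library and 5858 in the humdG library, a ratio of 0.94 [0.93 to 0.95]. All 9 genes had enough UMIs to be compared (at least 20), and 2 of 9 had a ratio above 1, against 41.8% of the 15740 genes compared. At 1.5 times or more, 3 of the 9 were lower in the humdG library, against 7.58% of all genes, and 0 were higher, against 6.33%. The median log2 ratio was −0.32 for the 9 genes and −0.06 for all genes.

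Dcn stood at 3157 and 3156 CPM, a ratio of 1.00 [0.99 to 1.01]. Lum was higher in the humdG library, at 743.9 and 880.2 CPM, a ratio of 1.18 [1.15 to 1.21], although with cells thinned to 1000 UMIs its log2 ratio was −0.02. Podn had a ratio of 1.20 [1.00 to 1.44]. Ogn (957.5 and 765.5 CPM, ratio 0.80), Bgn (452.7 and 356.4 CPM, ratio 0.79) and Aspn (489.0 and 443.3 CPM, ratio 0.91) were lower by less than 1.5 times. The 3 genes past 1.5 times were Fmod, Kera and Prelp. Fmod was at 112.7 and 46.8 CPM, a ratio of 0.42 [0.38 to 0.46]. Kera was at 288.1 and 187.4 CPM, a ratio of 0.65 [0.62 to 0.68]. Prelp was at 7.30 and 4.81 CPM, a ratio of 0.66 [0.47 to 0.90]. The log2 ratio of Prelp turned to 0.28 once the red blood cell-like background was subtracted. That background rested on only 11 humWT and 2 humdG Prelp UMIs.

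The values of Kera and Fmod moved with the makeup of the class. The tendon-like cluster, which held 64.2% of the class's Kera UMIs and 91.5% of its Fmod UMIs in the humWT library, made up 16.4% of the class's UMIs in that library and 7.82% in the humdG library. Within the tendon-like cluster Kera was at 1129 CPM in both libraries, a ratio of 1.00 [0.93 to 1.07], and Fmod had a ratio of 0.77 [0.69 to 0.86]. Without the 8 humWT cells over 50000 UMIs, Fmod was at 485.5 CPM in the humWT library and 485.8 in the humdG library. That check took cells from the humWT library alone. With each cell thinned to 1000 UMIs, Fmod was counted in 35.2% [27.4 to 43.5] of humWT and 25.5% [14.3 to 39.6] of humdG tendon-like cells. The part of deep cells in the lower Fmod was not tested. With each cluster given its humWT share of UMIs in both libraries, the log2 ratio of Kera went from −0.62 to −0.07 and that of Fmod from −1.27 to −0.37. Cells with over 50000 UMIs moved with the result as well: 8 tendon-like cells of the humWT library and 0 of the humdG library passed that depth. Without such cells the log2 ratios of the class were −0.33 for Kera and −0.41 for Fmod, so neither passed 1.5 times. Split by sex-linked UMIs, the log2 ratios were −0.08 for Kera and −0.19 for Fmod in cells with Xist but no Y-linked UMIs (484 and 321 cells) and −0.53 and −0.35 in cells of the reverse kind (658 and 263 cells). The checks on cluster makeup and on deep cells were added after the values had been seen. Marker lists moved in both directions. The 12 mesenchyme markers themselves summed to 35886 CPM in the humWT library and 28789 in the humdG library. Of the lists that were lower, the 11 cartilage markers summed to 372.9 CPM in mesenchyme-like cells of the humWT library (0 of them without a UMI) and 162.9 in the humdG library (2 without), and the 12 muscle markers to 412.1 and 148.0 CPM (0 without in either). The 10 RPE markers summed to 178.4 and 100.6 CPM and the 8 melanocyte markers to 106.8 and 63.7. Most retinal lists were higher. The 10 retinal progenitor markers summed to 617.1 and 853.4 CPM and the 8 neurogenic markers to 99.3 and 192.2. The 8 photoreceptor precursor markers summed to 80.4 and 136.9, and the 10 amacrine and horizontal cell markers to 78.3 and 130.1. The 10 retinal ganglion cell markers differed little, at 494.2 and 506.6 CPM. In these retinal lists 0 markers were without a UMI in either library. Their part in the ratios of the SLRPs was not tested.

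**Figure D5:**
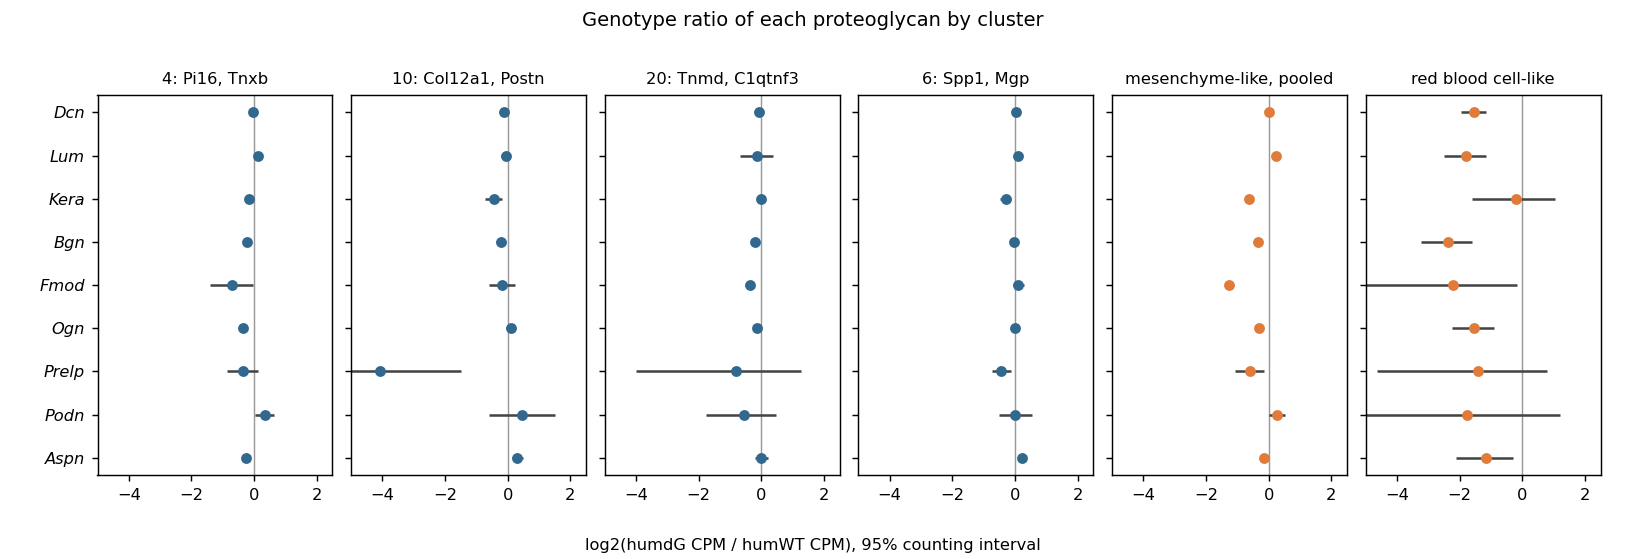
log2 of the humdG over humWT CPM ratio of each SLRP in the 4 stromal clusters, in the pooled mesenchyme-like cells (clusters 4, 10 and 20) and in red blood cell-like cells, with 95% counting intervals; bars that reach the left edge run past it. In the pooled cells Fmod lies at −1.27 and Kera at −0.62, while in cluster 20 they lie at −0.38 and −0.00.

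Cluster by cluster, the ratios of Dcn were close to 1, and those of Ogn, Bgn and Aspn lay farther from 1 in some clusters. Dcn had ratios of 0.98, 0.92, 0.95 and 1.02 in clusters 4, 10, 20 and 6. Lum was 1.10 [1.07 to 1.13] in cluster 4 and 1.07 [1.04 to 1.11] in cluster 6, and its intervals in clusters 10 and 20 covered 1. Ogn was 0.78 [0.76 to 0.80] in cluster 4 and 1.01 [0.96 to 1.05] in cluster 6. Bgn was 0.86 in clusters 4 and 10, 0.87 in the tendon-like cluster and 0.97 [0.94 to 1.01] in cluster 6. The tendon-like value of Bgn turned when the 8 deep humWT cells were left out, to 731.3 CPM in the humWT library against 738.5 in the humdG library. Aspn was 0.84 in cluster 4 and 1.24 [1.09 to 1.41] in cluster 10. In cluster 6, the members whose intervals lay away from 1 were Lum as given, Kera at 0.81 [0.72 to 0.92], Prelp at 0.74 [0.60 to 0.91] and Aspn at 1.17 [1.11 to 1.23].

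The SLRPs also stood apart in an unnamed cluster (number 15; 260 humWT and 204 humdG cells) led by the neuronal genes Nrxn3 and Ntng2. In its humWT cells Dcn was at 912.5 CPM, Kera at 251.7, Fmod at 157.0, Tnmd at 527.0 and Col1a1, a chain of type I collagen, at 10079. In its humdG cells Dcn was at 121.2 CPM, Kera and Fmod at 7.16 each, Tnmd at 13.2 and Col1a1 at 550.4. Without cells over 50000 UMIs (12 and 33 cells) the humWT levels were 783.3 CPM for Dcn and 193.5 for Kera, against 90.9 and 14.2 in the humdG library. In the humWT library, stromal and neuronal genes were thus counted in the same cluster, and the part of doublets in this was not tested.

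Of the other genes of the family, 6 of 9 had enough counts in mesenchyme-like cells, and none passed 1.5 times in either direction (median log2 ratio −0.19). Epyc (epiphycan), the neighbour of Kera, was the most abundant of them, at 214.5 and 192.5 CPM in the tendon-like cluster and 107.6 and 94.8 in cluster 4. Omd was at 9.94 and 9.21 CPM in cluster 4. Ecm2 was highest in the endothelium-like cluster led by Flt1, at 23.0 and 20.2 CPM. Chad, Nyx and Podnl1 had under 20 UMIs in the class.

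The partners of the SLRPs were compared in the same cells from lists given in full by their counts. Of all genes compared there, 7.58% were lower and 6.33% higher by 1.5 times, and the median log2 ratio was −0.06. Of 14 fibril-forming and fibril-associated collagens 2 were lower by 1.5 times (Col2a1 at 148.5 and 53.4 CPM, the collagen of cartilage, and Col11a2 at 118.4 and 47.7 CPM) and none was higher. The median log2 ratio was −0.24. Both were among the leading genes of the tendon-like cluster, which made up 16.4% and 7.82% of the class's UMIs. The part of this makeup in their values was not tested. Col1a1 was at 14284 and 10795 CPM. Of 6 enzymes that build the linker of the sugar chains none passed 1.5 times (median −0.10). Of 14 enzymes of chondroitin and dermatan sulfate, Csgalnact1, which starts chondroitin chains, was lower (39.8 and 18.4 CPM) and Chst3, a sulfotransferase, was higher (3.57 and 5.89 CPM; median −0.21). Of 7 enzymes of keratan sulfate only Chst5 was lower (28.6 and 14.1 CPM; median −0.34). Its ratio was 0.49 [0.41 to 0.59] in the class and 1.04 [0.86 to 1.25] within the tendon-like cluster, and in cluster 10 it was at 15.5 and 3.64 CPM, from 39 and 5 UMIs. Of 8 genes of collagen and proteoglycan processing Pcolce2 was lower (16.3 and 7.16 CPM), and of 8 receptors Erbb4 was lower (22.5 and 12.3 CPM). The 3 TGF-beta ligands were within 1.5 times, with a median log2 ratio of −0.52.

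The genes whose levels over the 24 clusters were most like each member, by Pearson's r of log2(CPM + 10) in the humWT library, were chosen among genes with at least 500 UMIs. For Dcn they were Lox (r = 0.98, and 0.97 in the humdG library), Col3a1 and Igsf10, and for Aspn Igsf10, Col3a1 and Col6a3. For Lum they were Cd248 (0.95 and 0.97), C1s1 and Dpep1, and for Bgn Emilin1 (0.96 and 0.95), Ddr2 and Ccdc80. For Kera they were Ssc5d (0.97 and 0.93), Epyc and Inhba, and for Fmod Col11a2 (0.98 and 0.91), Tnmd and Egfl6. For Ogn they were Chrd (0.97 and 0.89), Wnt9a and Slc38a4. Podn was nearest to Frmpd4 (0.87 and 0.84), Gabrb1 and Ell2. Prelp was nearest to Gm5141, but its r of 0.82 in the humWT library was 0.33 in the humdG library.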

How the data were processed

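The deposited files hold raw UMI counts per gene and barcode, which the authors made with Cell Ranger 7.1.0 on mm10 (Seurat 4.1.1 is also named in their processing notes). Whether intronic reads were counted is not given in the sources used here. A barcode was kept if over 500 genes were counted in it and less than 15% of its UMIs were mitochondrial. Scrublet (scanpy 1.11.5) called 1 and 0 doublets, so it did not work here, and the 5% of cells with the highest scores (851 and 956) were removed. The libraries were normalised, integrated and clustered with Seurat 5.3.0 in R 4.3.3 (2000 variable genes less the 7 SLRPs among them, 20 dimensions, resolution 0.5). A cluster took the name of the list with most markers raised at least 2 times over the other cells (10 CPM added, in at least 10% of cells), at least 3, with 1 among its 20 leading genes or with at least 3 more raised than any other list. It stayed unnamed where another list had more markers among its top 10 genes or its depth was low. This rule was adjusted after the clusters were seen, and the names may differ from the study's own. The barcode lists are longer than the cell numbers the study gives.

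Levels are summed counts scaled to a total of 1000000, with exact Poisson intervals. Ratios have exact conditional binomial intervals and shares have Clopper-Pearson intervals (scipy 1.17.1), checked on simulated counts. UMIs remove PCR copies, and the intervals cover counting error only. Named genes are the 9 SLRPs, genes of the fixed lists past 1.5 times or highest in level, and the 3 genes most like each SLRP. Genes past 1.5 times are counted among those whose UMIs in the 2 libraries add to 20 or more. Replaced sequence in Myrf lies at the end that these libraries read, so its counts were not used to check the genotypes. The SLRPs, marker lists and comparisons were chosen with earlier results of these data known. Other limits, clusterings, scalings and sets of cells were tried as alternatives.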

Additional observations from a re-analysis of the deposited data

Results flagged for a closer look

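Among the stromal and cartilage-like clusters, for 4 genes the humdG over humWT ratio lay on opposite sides of 1 in 2 clusters, with intervals away from 1 in each. The difference between the clusters was not tested. The share of all genes that meet this rule was not counted, so the number is not read as particular to the SLRPs. Lum was 1.10 in cluster 4 and 0.768 in the cartilage-like cluster. Bgn was 1.64 in the cartilage-like cluster, where it had 1517 and 1003 UMIs, and 0.86 in cluster 10. Prelp was 2.06 in the cartilage-like cluster, from 41 and 34 UMIs, and 0.74 in cluster 6. Aspn was 1.24 in cluster 10 and 0.487 in the cartilage-like cluster. The cartilage-like cluster, which is in each of these pairs, had 1218 humWT and 125 humdG cells, and 6 of the latter had over 50000 UMIs. Without them Bgn was at 356.0 CPM in the humWT library and 419.1 in the humdG library and Lum at 250.6 and 229.6, so the values of both lay nearer each other. Prelp was then at 9.62 and 20.9 CPM, from 41 and 13 UMIs, and Aspn at 129.1 and 70.6. Beyond these clusters, Ogn was 0.78 [0.76 to 0.80] in cluster 4 and 1.18 [1.09 to 1.28] in RPE-like cells, where it was at 349.9 and 388.0 CPM without the 2 humWT and 3 humdG cells over 50000 UMIs.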

How the results depend on the processing

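No paired analysis was possible because each genotype has 1 library. The log2 ratio of the 9 SLRPs together in mesenchyme-like cells (−0.087) was below 0 under all 16 alternatives. It was −0.264 for cells chosen by at least 3 of 9 genes with a UMI, −0.156 as the mean of per-cell CPM, −0.152 with cells thinned to 1000 UMIs, −0.110 at clustering resolution 1.0, −0.102 without doublet removal, −0.062 when scaled without mitochondrial, ribosomal protein, hemoglobin and Cdk8 UMIs, −0.060 with libraries merged without integration, and −0.020 after the background of red blood cell-like cells was subtracted. With cluster 6 counted in, an alternative chosen after seeing the data, it was −0.132. The number of the 9 with a ratio above 1 was 2, and 4 after background subtraction and 1 after thinning. Under the other alternatives it was 2, or 3 where Dcn was above 1 (Dcn was below 1 in 12 of 16). The share of their UMIs in mesenchyme-like cells, 59.8% and 55.4%, was 79.1% and 83.3% at resolution 1.0, 81.3% and 81.8% by the 3-gene choice, 79.5% and 84.6% with cluster 6, 70.0% and 61.9% after background subtraction, 67.9% and 61.0% in cells with Xist but no Y-linked UMIs, 61.9% and 56.5% with the SLRPs kept for clustering, 57.0% and 51.2% without integration, and 44.4% and 43.9% after thinning. Smaller moves were 59.6% (humWT) with more than 200 genes per cell, 60.2% (humWT) under 10% mitochondrial UMIs, 56.6% (humdG) in cells with Y-linked but no Xist UMIs, and 56.8% (humdG) without cells over 50000 UMIs.

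By gene, Prelp was below 0 in 15 of 16 alternatives and past 1.5 times in 6, from −1.88 to 0.28, the latter after background subtraction, where it reversed. The background subtracted for Prelp rested on 11 humWT and 2 humdG UMIs. Kera was below 0 in 16 of 16 alternatives and past 1.5 times in 9, from −1.05 to −0.07. Fmod was below 0 in 16 of 16 and past 1.5 times in 11, from −1.28 to −0.19. In cells with Xist but no Y-linked UMIs Kera was at −0.08 and Fmod at −0.19, and as the mean of per-cell CPM at −0.37 and −0.28. Bgn, Ogn and Aspn stayed below 0 and Podn above 0 in 16 of 16. Dcn ranged from −0.21 to 0.05 and Lum from −0.02 to 0.35. The cause of these moves was not tested, except that weighting the clusters alike removes differences in makeup by construction. Depth limits Prelp and Podn, with 174 and 53 and with 336 and 187 UMIs in the class.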
